A study of Mus musculus with 904 samples.

Results

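The 8 genes described here are 7 precursors of secreted brain peptides, Npy, Cort, Vip, Cck, Crh, Tac1 and Adcyap1, and Tacr1, the receptor for the tachykinin peptide made from Tac1. They were chosen by name from the 32285 genes of the count table, as peptide genes of cortical and striatal interneurons. They were followed in single nuclei from the brains of C57Bl/6J mice. Every mouse had received an AAV of the PHP.eB serotype at 5e11 vector genomes per mouse in young adulthood, and fluorescent nuclei were sorted 3 to 4 weeks later by flow cytometry. Each of the 904 libraries was made from 1 nucleus with SMART-Seq v4, a full-length method without molecular identifiers. All 16 construct names in the titles begin with DLX2.0, an enhancer used to drive expression in forebrain inhibitory neurons, followed by a SYFP2 or dTomato reporter with the nuclear histone H2B and, in most, an added RNA element; in the constructs with P2A, that element separates SYFP2 from a FLAG-tagged H2B. No uninjected or unsorted nuclei were analysed here, so every value comes from sorted nuclei of injected mice. Vector and reporter reads were not examined, so whether each nucleus carried a vector is not known.

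Neuropeptides are cut from larger precursors, stored in dense-core vesicles and released to act on G-protein-coupled receptors. In mouse cortex their precursors divide inhibitory neurons into subclasses: Npy and Cort with somatostatin, Vip and Cck in interneurons of caudal origin, and Crh in some of both. Long-range projecting interneurons that carry Sst, Nos1 and Chodl are known for Npy and for Tacr1, through which they can respond to substance P. In the striatum Tac1, the precursor of substance P, marks projection neurons with the dopamine receptor Drd1, whereas those with Drd2 carry Penk. Cck and Adcyap1, the precursor of PACAP, are also made by cortical excitatory neurons.

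Several of these precursors are known to respond to cyclic AMP, so their promoters were read for the half-site of the cyclic AMP response element, TGACG or its reverse complement CGTCA. A RefSeq promoter window on GRCm38.p6, from 250 bases before to 50 after the start site, was found for 7 of the 8 genes (not Crh). The half-site occurred on either strand in the windows of 6 of these 7, against 20.8% of 32851 promoter windows of the same length. The gene without it was Npy. The full palindrome TGACGTCA, which contains both half-sites, was in none of the 7 and in 1.79% of all windows. The sequences show the half-site in capitals with up to 20 bases on each side, read in the gene's own direction.
Cort, chr4:149126764-149126801, minus strand: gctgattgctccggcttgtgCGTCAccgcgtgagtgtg
Tac1, upstream copy, chr6:7554844-7554888, plus strand: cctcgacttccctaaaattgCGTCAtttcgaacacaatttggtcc
Tac1, copy near the start, chr6:7554998-7555042, plus strand: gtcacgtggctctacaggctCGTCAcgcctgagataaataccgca
Tacr1, chr6:82402229-82402273, plus strand: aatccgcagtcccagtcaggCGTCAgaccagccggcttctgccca
Cck, chr9:121495717-121495761, minus strand: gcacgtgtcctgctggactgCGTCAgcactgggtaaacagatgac
Vip, chr10:5639119-5639163, plus strand: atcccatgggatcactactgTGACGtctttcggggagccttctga
Adcyap1, chr17:93198906-93198950, plus strand: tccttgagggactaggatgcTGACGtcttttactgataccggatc
Distances are to the RefSeq start of each window, which in Tac1 and Tacr1 lies downstream of the gene start given below. The half-site began 18 bases before the RefSeq start in Cort, 43 and 197 bases before it in Tac1, 47 in Cck, 79 in Vip, 91 in Adcyap1 and 226 in Tacr1. In a second Adcyap1 window the same half-site began 242 bases before the start. The Vip and Adcyap1 windows shared the 10 bases TGACGTCTTT around it. A match of letters is a description of these windows and not a measured binding site.

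Of the 904 nuclei, 835 had at least 1000 detected genes and 10000 reads and were kept. The kept nuclei held 30023 to 719419 reads in genes, with a median of 260274. Classes were set by genes outside the 8, in CPM (reads of a gene per 1e6 reads of that nucleus): striatal projection nuclei by Rgs9 of at least 20 with Slc17a7 under 20 (214 nuclei), Sst nuclei by Sst of at least 100, split by Nos1 plus Chodl of at least 100 into Nos1/Chodl (44) and other Sst (70), Pvalb nuclei by Pvalb of at least 20 with Sst under 100 (92), excitatory nuclei by Slc17a7 of at least 50 (134), astrocytes by Aqp4 of at least 20 (35) and oligodendrocytes by Mog of at least 20 (37). A further 92 nuclei met more than 1 rule and were left out, and 117 met none; 33 of the latter had Adarb2 of at least 100 with Gad1 or Gad2 of at least 20 and are called Adarb2 interneuron nuclei, which leaves 84 of no class. The highest value below a threshold and the lowest above it were close for Sst (93.3 and 102) and further apart for Slc17a7 (39.4 and 59.8). Other defining markers followed the class names: 6 of 8 striatal markers had reads in at least 25% of striatal projection nuclei, 7 of 8 interneuron markers in other Sst and in Pvalb nuclei, 6 of 8 in Nos1/Chodl nuclei, and 4 of 5 excitatory markers in excitatory nuclei.

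The labels contradict the data and each other in ways that set what can be compared. They place every nucleus in primary visual cortex, although the design text names 3 regions including striatum and 214 kept nuclei met the striatal rule. Titles with a dTomato construct also call the nucleus YFP+, so the sort gate is not known for these. The construct in a title and the vector ID in the treatment label do not map to each other: each title had 4 or 5 vector IDs, and each vector ID 3 to 9 titles. Constructs were therefore not compared, and the construct in the title, called the title group, served only to divide each class into summed libraries. No label names an animal, so a p-value here measures the spread of title groups alone, and that spread may be technical. Library names carry 1 of 3 prefixes, S40317, S40325 or S40327, which hold classes in different numbers: striatal projection nuclei numbered 0, 141 and 73 in them. A sort on the reporter can set how many nuclei of a class there are, so the sizes of classes were not compared.

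Npy was in 203 of 835 kept nuclei (24.3%), Cort in 81 (9.70%), Vip in 17 (2.04%), Cck in 220 (26.3%), Crh in 26 (3.11%), Tac1 in 230 (27.5%), Adcyap1 in 24 (2.87%) and Tacr1 in 72 (8.62%). All 44 Nos1/Chodl nuclei held at least 20 CPM of 1 or more of the 8 genes. None of the 8 reached that level in 14.3% of other Sst nuclei, 16.4% of excitatory, 27.2% of Pvalb and 37.9% of striatal projection nuclei, nor in 80% of astrocytes and 81.1% of oligodendrocytes. In the levels below, reads were summed over the nuclei of a class in each title group with at least 3 of them, and n counts title groups.

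**Figure D1:**
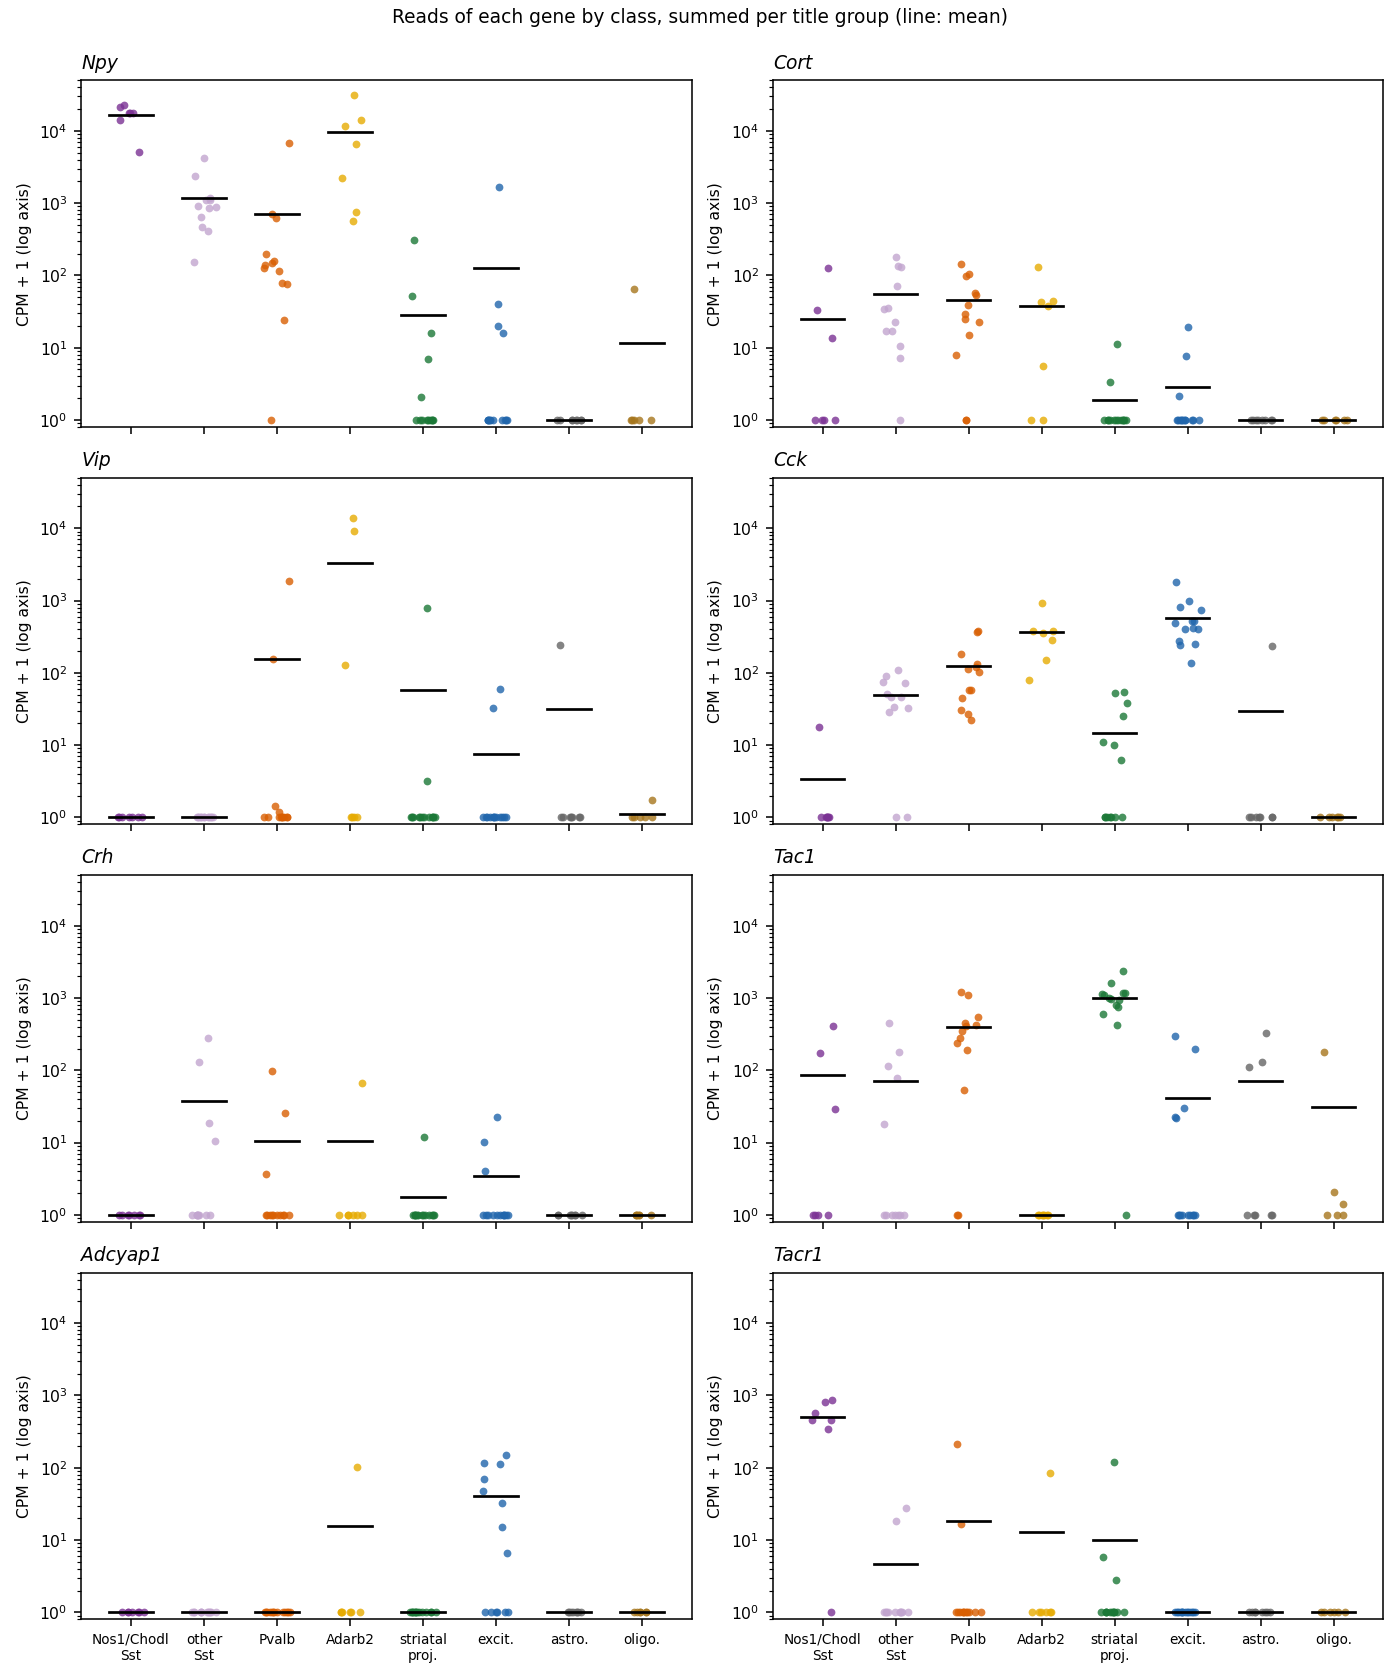
Level of each gene (CPM + 1, log axis) by class of nucleus; each point is the summed library of 1 title group with at least 3 nuclei of the class, and the line is the mean over title groups. Npy and Tacr1 stand highest in Nos1/Chodl nuclei among the 7 classes, with means of 16568 and 501 CPM, Cck and Adcyap1 in excitatory nuclei with 571 and 39.01 CPM, and Tac1 in striatal projection nuclei with 997 CPM; the Adarb2 interneuron nuclei, which met none of the 7 rules, are drawn beside them.

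Npy (ENSMUSG00000029819, chr6:49822710-49829507 on mm10, plus strand), the precursor of neuropeptide Y, was highest in Nos1/Chodl nuclei among the 7 classes. It stood at 16568 ± 5778 CPM there (SD, n = 7; lowest 5020, median 17802, highest 22563) and at 1194 ± 1110 CPM in other Sst nuclei (n = 12; lowest 151, median 899.5, highest 4237). Every Nos1/Chodl library was above every other Sst library, and these 2 neighbours in the order were the only ones for Npy whose mean ± SD ranges did not overlap. Pvalb nuclei came next at 703 ± 1832 CPM (n = 13; lowest 0, median 139.7, highest 6758), then excitatory nuclei at 125 ± 448 CPM (n = 14; median 0, highest 1683) and striatal projection nuclei at 27.5 ± 83.1 CPM (n = 14; median 0, highest 312). Oligodendrocytes stood at 10.7 ± 26.1 CPM (n = 6), and astrocyte libraries held no Npy reads.

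Within title groups that had both classes, Npy in Nos1/Chodl nuclei was 14118, 22563, 5020, 21157 and 17802 CPM, against 151, 645, 4237, 412 and 857 CPM in other Sst nuclei of the same groups. It was higher in 5 of 5 groups and the values did not overlap, with a log2 difference of 4.72 ± 0.68 (SE) and an adjusted p of 0.00324 in edgeR's quasi-likelihood test. Of the 8 genes 3 were tested and 1, Npy, was called, where 0.11% of all tested genes were (8 of 7245). Single nuclei showed the same order: all 44 Nos1/Chodl nuclei held at least 1000 CPM of Npy and 34 held at least 10000, whereas 20 of 70 other Sst nuclei reached 1000 and 0 reached 10000. Sst, the gene that defines both classes, was used by the rule and is not described. The list of 8 striatal projection markers, Drd1 among them, also differed between these classes: 5 had reads in at least 25% of Nos1/Chodl nuclei and 3 in at least 25% of other Sst nuclei, with 0 and 1 markers at 0, and their summed level per nucleus was 0 to 2751 CPM (median 526) and 0 to 5638 CPM (median 154). Drd1 had reads in 47.7% of Nos1/Chodl and 1.43% of other Sst nuclei, and Penk in 52.3% and 10%. Pdyn, on the same list, went the other way, with reads in 11.4% and 27.1%. The part of these markers in the Npy and Tacr1 differences was not tested.

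**Figure D2:**
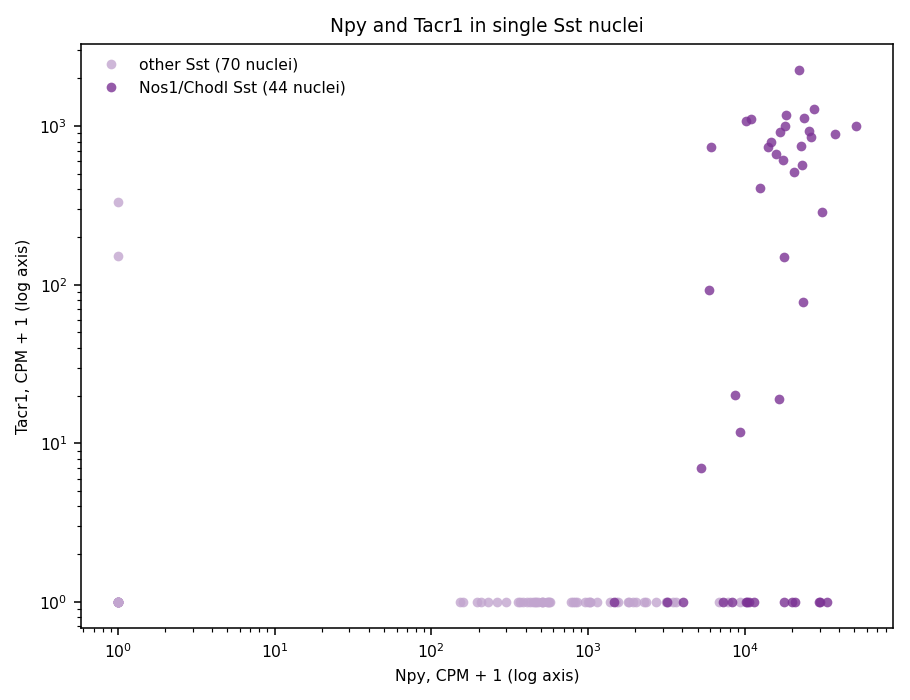
Npy and Tacr1 (CPM + 1, log axis) in single Sst nuclei; each point is 1 nucleus, 44 with Nos1 plus Chodl of at least 100 CPM and 70 below. All Nos1/Chodl nuclei lie at 1467 CPM of Npy or higher; 25 of 44 reach 20 CPM of Tacr1.

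Npy was also higher in other Sst and in Pvalb nuclei than in excitatory nuclei. In 10 shared title groups it was 1279 ± 1206 CPM in other Sst nuclei and 174 ± 530 CPM in excitatory nuclei (medians 1002 and 0), higher in 9 of 10, with a log2 difference of 9.85 ± 1.65 and an adjusted p of 0.000837 in edgeR. In 12 shared groups it was 710 ± 1913 CPM in Pvalb nuclei and 146 ± 484 CPM in excitatory nuclei (medians 132 and 0), higher in 10 of 12, with a log2 difference of 7.08 ± 1.29 and an adjusted p of 0.00106. Both log2 differences come from the fit with the title block and are larger than the printed means give, with excitatory medians of 0. They are not to be read as ratios of these means. The Pvalb call was lost with limma-voom (adjusted p 0.0697) and, in edgeR, without the prefix S40327 (0.0834). Against striatal projection nuclei, other Sst nuclei were higher in 10 of 10 title groups (962 ± 598 against 37.8 ± 97.8 CPM), a striatal minus Sst log2 difference of -9.68 ± 1.42 with an adjusted p of 9.01e-05 in edgeR. Between other Sst and Pvalb nuclei Npy was not called (1132 ± 1212 against 982 ± 2179 CPM; log2 difference 2.001 ± 0.72, adjusted p 0.587 in edgeR; higher in 7 of 9 groups), though it was 2.47 with an adjusted p of 0.0402 without DLX2.0-BORG-SYFP2-H2B-BC.

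The lower Npy levels rested on few nuclei. A single excitatory nucleus held 84.4% of that class's 4385 Npy reads, at 14178 CPM. It also held 1199 CPM of Gad1, which marks inhibitory neurons, with 2701 of Lamp5 and 781 of Adarb2. Lamp5 alone is not such a mark, since another excitatory nucleus held 584 CPM of it with 0 of Gad1 and Gad2. In all, the 7 excitatory nuclei of 134 with Gad1 or Gad2 carried 97.1% of the class's Npy reads, and without them its pooled level was 3.97 CPM in place of 132. In Pvalb nuclei 1 nucleus held 59.7% of the Npy reads, at 31244 CPM, with 663 CPM of Lamp5. Whether such libraries hold 1 nucleus or more was not tested. With 32 nuclei that held genes of another class left out, Npy was called also between other Sst and Pvalb nuclei (adjusted p 0.0229 in edgeR). Without the title block the Npy differences from excitatory nuclei were 2.75 for other Sst (adjusted p 0.51) and 2.23 for Pvalb (adjusted p 0.58), and neither was called.

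Adarb2 interneuron nuclei held Npy as well. It was 9647 ± 10951 CPM there (n = 7; lowest 570, median 6641, highest 31280), a range that overlaps both Sst classes. All 15 of these nuclei with Lamp5 of at least 20 CPM held Npy of at least 20 CPM, against 2 of 18 without Lamp5; this split was chosen after the values were seen and was not tested. Lamp5 marks neurogliaform interneurons, which are known for Npy.

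Cort (ENSMUSG00000028971, chr4:149125034-149126763, minus strand) encodes cortistatin, a peptide related to somatostatin. It was low in every class, at 53.9 ± 59.7 CPM in other Sst nuclei (n = 12), 44.8 ± 44.2 in Pvalb (n = 13) and 24.3 ± 46.01 in Nos1/Chodl nuclei (n = 7), and these 3 did not differ beyond their spread. It had reads in 28.6%, 26.1% and 13.6% of these nuclei, in 24.2% of Adarb2 interneuron nuclei and in 0 of 72 glial nuclei. Cort was higher in Pvalb than in excitatory nuclei (43.8 ± 45.99 against 2.19 ± 5.45 CPM; higher in 9 of 12 title groups), by 6.55 ± 1.68 on the log2 scale with an adjusted p of 0.021 in edgeR. That call was lost without DLX2.0-BORG-SYFP2-H2B-BC (adjusted p 0.0516 in edgeR) or DLX2.0-dTomato-H2B (0.0508), and without DLX2.0-3xBORG-SYFP2-H2B-BC or DLX2.0-SYFP2-H2B-3xU7snRNAOPT-BC, where Cort no longer passed the filter on low counts. It was also lost with at least 5 nuclei per library (0.159), with no title block (0.0656), without S40325 (0.15), without S40327 (0.36) and in S40327 alone (0.682). Cort failed the filter with grouping by vector ID, thinning, S40317 left out and nuclei with genes of another class left out. It was lower in striatal projection than in other Sst nuclei (1.27 ± 3.26 against 50.6 ± 57.99 CPM; lower in 9 of 10 groups), by -7.57 ± 2.002 with an adjusted p of 0.0249. The second call was lost, at an adjusted p of 0.0508 to 0.0671 in edgeR, when any of 7 of the 10 title groups was left out. With 1 other left out Cort no longer passed the filter. Nor was it called with at least 5 nuclei per library, by vector ID, when thinned, without S40325 or in S40327 alone. Between other Sst and Pvalb nuclei the log2 difference was -0.06 ± 1.28 and its sign turned under other settings.

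Crh (ENSMUSG00000049796, chr3:19693401-19695396, minus strand), the precursor of corticotropin-releasing hormone, was in 26 kept nuclei and passed the filter on low counts in no comparison. It was 36.6 ± 85.7 CPM in other Sst nuclei (n = 12), with reads in 5 of 70 nuclei (7.14%). Only 4 of the 12 title groups held any, at 9.36, 17.5, 130 and 282 CPM. In the 5 title groups with both Sst classes, Nos1/Chodl nuclei held 0 Crh reads and other Sst nuclei 384. That is at least 164-fold lower against a floor of 3 counts over the group, a bound on reads and not on nuclei. By nuclei, 0 of 44 Nos1/Chodl nuclei held Crh (exact upper limit 8.04%), a limit that includes the other Sst share of 7.14%. Without a filter on low counts the difference was not called (adjusted p 0.987 in edgeR). One nucleus held 215 of the 401 Crh reads of the other Sst class (53.6%, at 1171 CPM), and without it the pooled level of the class was 10.99 CPM in place of 23.4. The few reads in Pvalb and excitatory libraries, 9.55 ± 27.03 (n = 13) and 2.44 ± 6.12 CPM (n = 14), were within the spread of the Sst value.

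Vip (ENSMUSG00000019772, chr10:5639218-5647617, plus strand) encodes vasoactive intestinal peptide and marks a subclass of caudal interneurons. Among kept nuclei 17 held Vip, and 5 of them were among the 33 Adarb2 interneuron nuclei (15.2%), where it was 3258 ± 5678 CPM (n = 7; median 0, highest 13646). All 5 carried the prefix S40325 and none held Lamp5 of at least 20 CPM. No Vip read was found in any of the 44 Nos1/Chodl or 70 other Sst nuclei, which by a floor of 3 counts allows a share of nuclei with a read of up to 6.82% in the first (exact upper limit 8.04%).

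Vip reads in the other classes came from single nuclei. In Pvalb nuclei 93.1% of 2635 reads, and in striatal projection nuclei 99.8%, were in 1 nucleus each; the striatal one held 13658 CPM of Vip and 4245 CPM of Adarb2. Other Sst nuclei were at 0 Vip reads in the 9 title groups shared with Pvalb, at least 686-fold lower, but this fold rests on that 1 Pvalb nucleus.

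Cck (ENSMUSG00000032532, chr9:121489824-121495694, minus strand), the precursor of cholecystokinin, was highest in excitatory nuclei among the 7 classes. It stood at 571 ± 421 CPM there (n = 14; lowest 137, median 456, highest 1785), with reads in 76.9% of nuclei. Adarb2 interneuron nuclei followed at 363 ± 268 CPM (n = 7), Pvalb nuclei at 125 ± 119 (n = 13) and other Sst nuclei at 48.02 ± 33.4 (n = 12). Astrocytes stood at 28.9 ± 81.7 (n = 8), striatal projection nuclei at 13.6 ± 19.7 (n = 14) and Nos1/Chodl nuclei at 2.41 ± 6.39 CPM (n = 7). The summed oligodendrocyte libraries held no Cck reads, but 3 of 37 oligodendrocytes, in title groups too small to be summed, held 988 reads (894 to 1224 CPM). Pooled over all its nuclei, that class stood at 80 CPM. This was below the pooled level of Pvalb nuclei (109) and above those of striatal projection (12.9) and Nos1/Chodl nuclei (8.38). The last place of oligodendrocytes in the order therefore holds for summed libraries only. No 2 neighbours in the order among the 7 classes differed beyond their spread.

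Within title groups the differences of Cck from excitatory nuclei were called in all 3 comparisons. Striatal projection nuclei held 10.7 ± 19.6 CPM against 517 ± 431 CPM, lower in 12 of 12 groups with no overlap (highest striatal 52.9, lowest excitatory 137), a log2 difference of -7.64 ± 0.86 and an adjusted p of 5.28e-06 in edgeR. Other Sst nuclei held 45.8 ± 35.8 CPM against 638 ± 485, lower in 10 of 10 groups with no overlap, a log2 difference of -4.18 ± 0.79 and an adjusted p of 0.00273. Pvalb nuclei held 133 ± 120 CPM against 583 ± 444, lower in 12 of 12 groups though the values overlapped, a log2 difference of -2.49 ± 0.43 and an adjusted p of 0.000559.

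The level of Cck in excitatory nuclei moved with the library prefix. Its pooled level was 1016 CPM in 54 nuclei of S40317, 443 in 47 of S40325 and 234 in 33 of S40327, whereas the share of nuclei with reads was 72.2%, 82.98% and 75.8%. Without S40317 the log2 difference was -2.69 for other Sst (adjusted p 0.239 in edgeR) and -1.51 for Pvalb (adjusted p 0.193), and both calls were lost. They were lost also without S40325, at -3.75 (adjusted p 0.0698) and -1.98 (0.154), and in S40327 alone, at -2.15 (0.999) and -0.50 (0.998). The Pvalb call was lost without S40327 as well (-2.64, adjusted p 0.0661 in edgeR), and the striatal projection call in S40327 alone (-8.71, 0.137). The prefix cannot be told apart from any difference in region or day, which no label gives.

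Counts of called genes among the 8 were read against all tested genes. Between other Sst and excitatory nuclei 2 were called (Npy, Cck), where 2.78% of 8210 tested genes were. Between Pvalb and excitatory nuclei 4 were called (Npy, Cort, Cck, Tac1), against 5.17% of 8661. Between striatal projection and excitatory nuclei 2 were called (Cck, Tac1), against 4.4% of 8805, and between striatal projection and other Sst nuclei 3 (Npy, Cort, Tac1), against 5.76% of 7721. Between other Sst and Pvalb nuclei edgeR called 0, against 0.319% of 7843; 2 of 4 tested had an unadjusted p under 0.05, and DESeq2 and limma-voom called 1 each. Between Drd1 and Drd2 striatal projection nuclei edgeR called 0, against 0.0434% of 9208; 1 of 2 tested had an unadjusted p under 0.05, and DESeq2 and limma-voom called 1 each. Tested genes of the 8 passed a filter on low counts, mostly through the class where they are high, and the comparisons share libraries, so these counts are descriptions of the 8 genes.

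**Figure D3:**
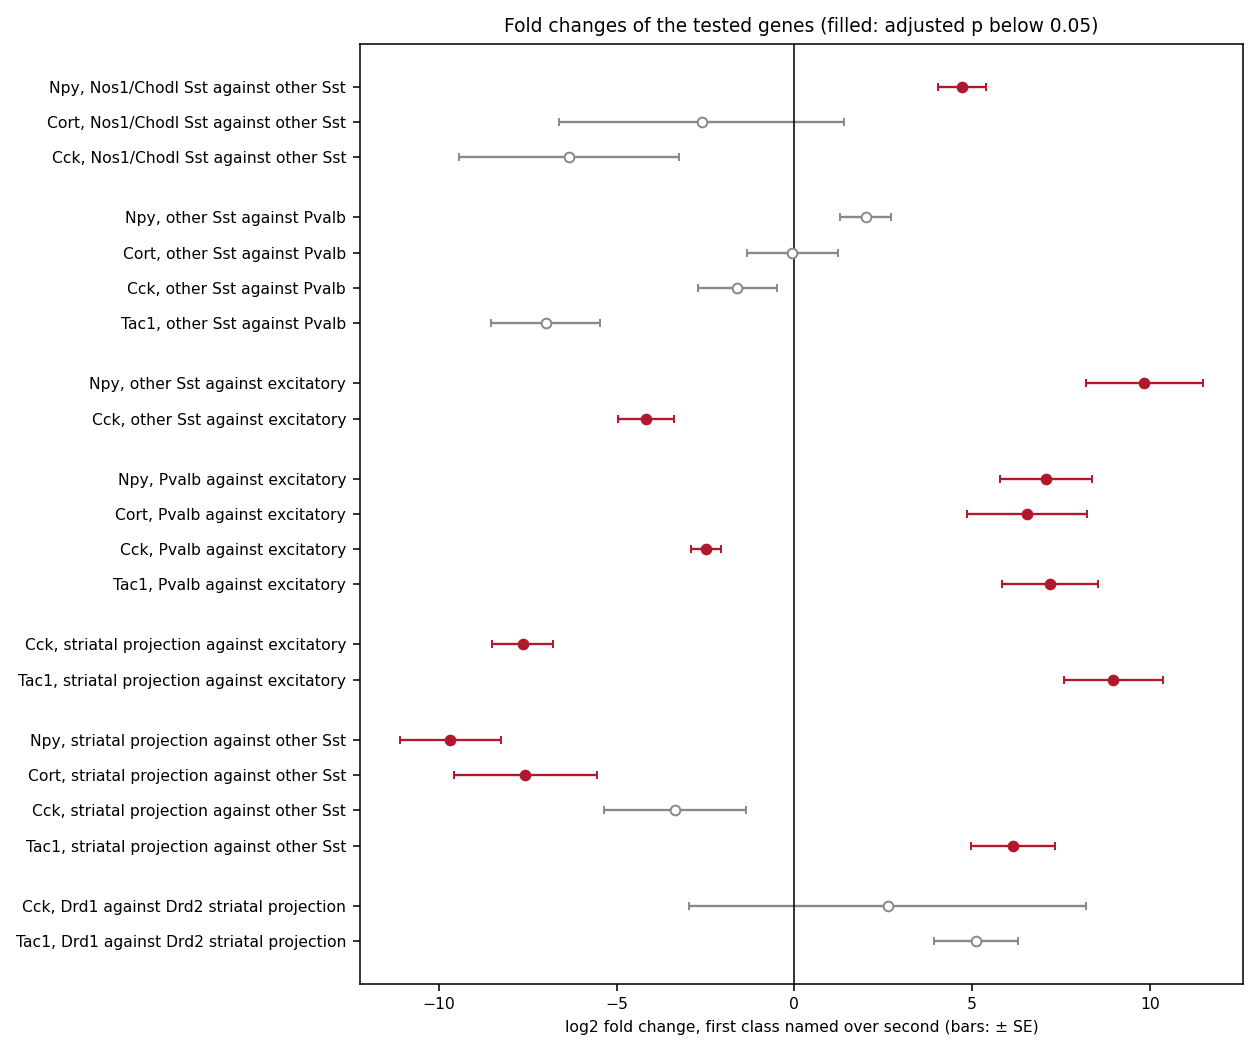
Log2 difference (first class minus second) ± SE from edgeR for each of the 8 genes that passed the filter on low counts, in 7 comparisons of classes within title groups; filled points have an adjusted p under 0.05. Npy stands 4.72 above 0 for Nos1/Chodl against other Sst, and Cck stands below 0 in each of the 3 comparisons with excitatory nuclei (-7.64, -4.18 and -2.49).

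Tac1 (ENSMUSG00000061762, chr6:7554879-7565834, plus strand), the precursor of substance P and neurokinin A, was highest in striatal projection nuclei at 997 ± 541 CPM (n = 14; lowest 0, median 994, highest 2338), with reads in 58.9% of them. Pvalb nuclei followed at 402 ± 374 CPM (n = 13) with reads in 42.4%. The remaining classes stood between 30.3 CPM in oligodendrocytes and 86.3 CPM in Nos1/Chodl nuclei, and no 2 neighbours in the order differed beyond their spread.

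Tac1 was higher in striatal projection than in excitatory nuclei in 11 of 12 title groups (1003 ± 587 against 45.6 ± 97.5 CPM), by 8.97 ± 1.38 on the log2 scale with an adjusted p of 0.000184 in edgeR. It was higher than in other Sst nuclei in 9 of 10 groups (1061 ± 612 against 84.4 ± 145 CPM), by 6.15 ± 1.19 with an adjusted p of 0.00218. The first call was lost without S40327 (7.503, adjusted p 0.0747 in edgeR) and in S40327 alone (5.42, 0.0992), and the second with at least 5 nuclei per library (3.60). Pvalb nuclei were above excitatory nuclei in 10 of 12 groups (415 ± 388 against 22.5 ± 56.6 CPM), by 7.20 ± 1.35 with an adjusted p of 0.00143. Against other Sst nuclei, Pvalb nuclei were higher in 7 of 9 groups (490 ± 417 against 72.6 ± 155 CPM), but the other Sst minus Pvalb difference of -7.00 ± 1.53 had an adjusted p of 0.0511 in edgeR and was not called. RLE scaling, limma-voom and DESeq2 each called it, as did edgeR without DLX2.0-SYFP2-H2B-U7snRNAOPT-BC (adjusted p 0.00706) or without DLX2.0-SYFP2-P2A-3XFLAG-H2B-SIRLOIN (0.0216).

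Within striatal projection nuclei Tac1 followed the dopamine receptor genes, which mark the direct and indirect pathways. In nuclei with Drd1 of at least 20 CPM and Drd2 under 20 it was 1506 ± 523 CPM (n = 10; lowest 603, median 1439, highest 2338), and in those with the reverse it was 100 ± 96.6 CPM (n = 7; lowest 0, median 90.8, highest 255). The title groups did not overlap, and in the 4 groups with both it was higher in Drd1 nuclei in 4 of 4 (1498 ± 507 against 95.1 ± 113 CPM). The log2 difference was 5.10 ± 1.18 with an unadjusted p of 0.00151, and it was not called in edgeR (adjusted p 1) but was in DESeq2 (0.038) and limma-voom (0.0241). Without the title group DLX2.0-dTomato-H2B it was 4.05 with an adjusted p of 0.00081 in edgeR. Reads of Tac1 were in 92.3% of 104 Drd1 nuclei and in 15.5% of 58 Drd2 nuclei. In the prefixes S40325 and S40327 the Drd1 shares were alike, at 91.7% and 93.2%. The Drd2 shares there were 8 of 47 nuclei (17.02%) and 1 of 11 (9.09%), too few to compare.

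**Figure D4:**
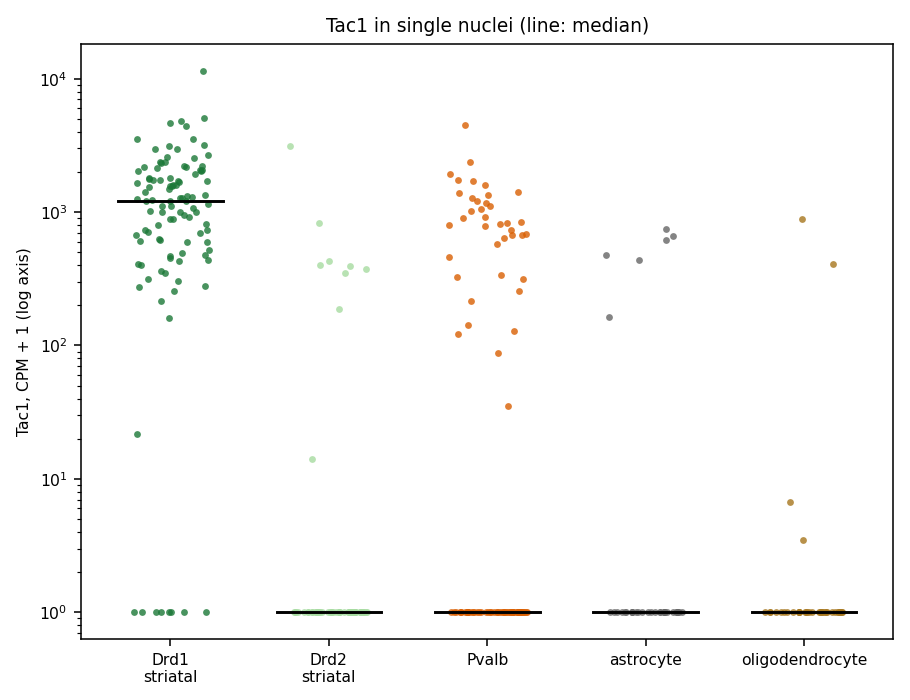
Tac1 (CPM + 1, log axis) in single nuclei of Drd1 and Drd2 striatal projection, Pvalb, astrocyte and oligodendrocyte classes; each point is 1 nucleus and the line is the median over nuclei. The median is 1200 CPM in Drd1 nuclei and 0 in Drd2 nuclei.

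Some nuclei of classes with low Tac1 levels also held reads of it. Of 72 glial nuclei 10 held at least 1 read (13.9%; exact 95% interval 6.87 to 24.1, counting error only), with a median depth of 286357 reads in astrocytes and 325977 in oligodendrocytes. The shares in Nos1/Chodl (9.09%), other Sst (11.4%), no-class (11.9%) and Drd2 nuclei (15.5%) were all inside the glial interval. Those in excitatory nuclei (3.73%) and Adarb2 interneuron nuclei (0 of 33) lay below it. None of these shares alone tells background from expression of Tac1 in some nuclei of the class. Single nuclei were not always low. In other Sst nuclei 8 of 70 held at least 20 CPM of Tac1, with a median of 459 CPM among them and a highest of 3148 CPM. The median over no-class nuclei with at least 20 CPM was 1214. The source of these reads was not tested. For the other genes the glial share was 1.39% for Npy, 0% for Cort, 2.78% for Vip, 5.56% for Cck, 1.39% for Crh, 2.78% for Tacr1 and 0% for Adcyap1. Thinning each nucleus to 100000 reads, which left out 6 of 835 nuclei, left 69.6% in place of 70% for Npy in other Sst nuclei and 75.9% in place of 76.9% for Cck in excitatory nuclei. For Tac1 it left 17.1% in astrocytes, as before, and 5.41% in place of 10.8% in oligodendrocytes.

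**Figure D5:**
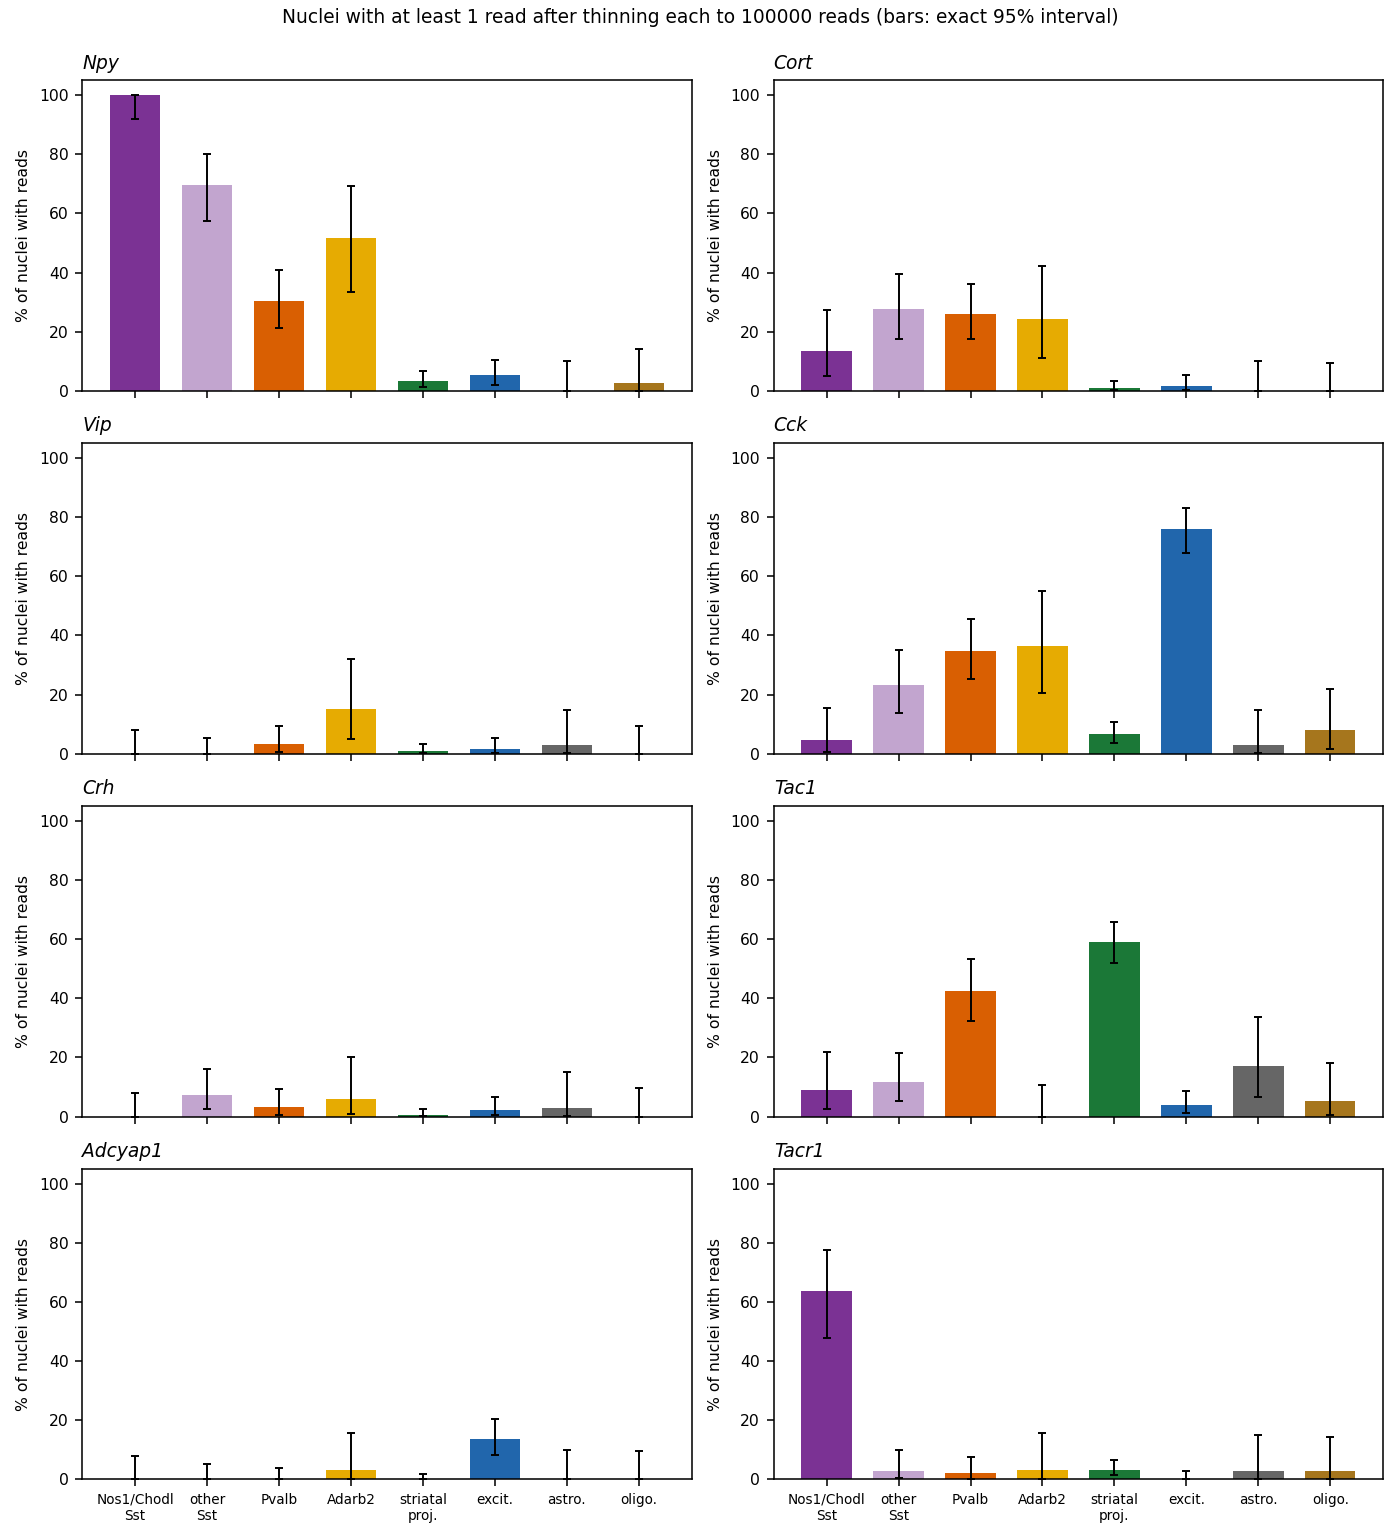
Share of nuclei (%) with at least 1 read of each gene after thinning every nucleus to 100000 reads, by class; bars are exact 95% intervals, for counting error only. Npy is in all Nos1/Chodl nuclei and in 69.6% of other Sst nuclei, and Adcyap1 is seen in excitatory nuclei and in none of the other 6 classes.

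Tacr1 (ENSMUSG00000030043, chr6:82402334-82560104, plus strand), the receptor for substance P, was highest in Nos1/Chodl nuclei at 501 ± 293 CPM (n = 7; lowest 0, median 458, highest 872). Pvalb nuclei were next at 17.4 ± 58.2 CPM (n = 13), and these neighbours in the order differed beyond their spread; striatal projection nuclei stood at 8.91 ± 31.5 CPM (n = 14), other Sst nuclei at 3.71 ± 8.88 CPM (n = 12) and excitatory nuclei at 0 (0 of 134 nuclei). Tacr1 had reads in 65.9% of Nos1/Chodl nuclei, 75.9% of 29 in S40325 and 53.8% of 13 in S40327, against 2.86% of other Sst nuclei. In the 5 title groups with both Sst classes it was 569, 458, 0, 456 and 345 CPM in Nos1/Chodl nuclei and 0 in other Sst nuclei, higher in 4 of 5. That is 2935 reads against 0, at least 764-fold higher against a floor of 3 counts over the group.

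Tacr1 did not pass the filter on low counts in that comparison and was called where no filter was used (adjusted p 3.79e-09 in edgeR). All 25 Nos1/Chodl nuclei with Tacr1 of at least 20 CPM also held Npy at that level. So did all 44 nuclei of the class, so this overlap was fixed in advance. Among nuclei with Chodl of at least 20 CPM 17 of 25 held Tacr1 (68%), and among those without it 8 of 19 (42.1%), a split chosen after the values were seen. The title group without Tacr1, DLX2.0-SYFP2-H2B-3xBORG-BC with 3 Nos1/Chodl nuclei, was also the one with the lowest Npy in Nos1/Chodl and the highest in other Sst nuclei. With that group left out, Tacr1 passed the filter and was called.

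Adcyap1 (ENSMUSG00000024256, chr17:93199017-93206537, plus strand), the precursor of PACAP, was found in excitatory nuclei, at 39.01 ± 52.3 CPM (n = 14; lowest 0, median 9.90, highest 151) with reads in 14.2%. The other 6 classes held no Adcyap1 read. In shared title groups other Sst nuclei held 0 reads against 1004 in excitatory nuclei (at least 192-fold lower), Pvalb nuclei 0 against 1386 (at least 322-fold lower) and striatal projection nuclei 0 against 829 (at least 533-fold lower). Without a filter on low counts edgeR gave adjusted p values of 0.0993, 0.0042 and 0.02 for these differences. Like Cck, Adcyap1 in excitatory nuclei differed by prefix: 16 of 54 nuclei held it in S40317 (29.6%), 2 of 47 in S40325 (4.26%) and 1 of 33 in S40327 (3.03%). S40317 held 0 of the 214 striatal projection nuclei, 5 of the 70 other Sst nuclei and 16 of the 92 Pvalb nuclei. The folds above are bounds on reads, and only 19 of 134 excitatory nuclei held Adcyap1. The part of the prefix in the class difference was not tested, since Adcyap1 was filtered out.

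The genes overlapped within nuclei of a class, counted at 20 CPM. In other Sst nuclei 18 of the 20 Cort nuclei also held Npy, which is 36.7% of the Npy nuclei. Over all nuclei of that class 70% held Npy. In Pvalb nuclei 17 held both Npy and Tac1, 60.7% of the 28 with Npy and 43.6% of the 39 with Tac1. Over all Pvalb nuclei 42.4% held Tac1 and 30.4% held Npy. In excitatory nuclei 14 of 18 Adcyap1 nuclei held Cck (77.8%), which is 13.7% of the 102 with Cck. This is near the 76.1% of all excitatory nuclei that held Cck, so it shows no link between these genes. None of the overlaps was tested.

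The genes whose levels over 74 libraries of a class and a title group were most like each member's were read as a description, since the libraries share depth, class and prefix. Pearson's r on log2(CPM + 10) over 12187 genes was highest for Npy with Sst (0.83), Lhx6 (0.83) and Vstm2b (0.81), for Tacr1 with Galr1 (0.83), Nos1 and Chodl (0.81 each), and for Cort with Kcnip1 (0.78), Crhbp and Maf (0.71 each). Sst, Nos1 and Chodl are genes of the class rule. For Cck they were Neurod6 and Olfm1 (0.77 each) and Sphkap (0.75), and those for Adcyap1 included Bdnf (0.80) and C1ql3 (0.78). Tac1 was most like Lpl and Lmo2 (0.64 each) and Adamts3 (0.62). The values were lower for Vip, with Tac2 (0.59), Vash2 (0.46) and Fbln5 (0.45), and for Crh, with Gm43061 (0.57), Akr1c18 (0.55) and Smtn (0.54).

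Other genes of peptide signalling were followed as a list of 42, with 16 receptors, 14 binding, processing and dense-core vesicle genes and 12 other precursors, written with earlier results of these data known. Between Nos1/Chodl and other Sst nuclei 13 were tested and 1 was higher: Scg2, a secretogranin of dense-core vesicles, at 2707 ± 983 against 171 ± 93.5 CPM, higher in 5 of 5 title groups by 4.12 ± 0.47 on the log2 scale (adjusted p 0.000356 in edgeR). The list's median log2 difference was 0.30, against -0.18 over all tested genes. Between other Sst and Pvalb nuclei 0 of 15 were called (median 0.54, against -0.12), and between Drd1 and Drd2 nuclei 0 of 15 (median 0.46, against 0.46).

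Against excitatory nuclei 9 of the 10 calls on the list were lower, as were most calls over all genes (163 of 228 in other Sst, 328 of 448 in Pvalb and 233 of 387 in striatal projection nuclei). Of 16 tested in other Sst nuclei 1 was higher and 3 lower (median 0.02, against -0.61 over all genes). The higher one was Crhbp, the binding protein for corticotropin-releasing hormone, at 452 ± 216 CPM and 5469 reads against 0 (adjusted p 3.11e-06 in edgeR). Cadps2, which primes dense-core vesicles for release, was lower in other Sst nuclei by -9.81 ± 1.49 (1.41 against 123 CPM, adjusted p 0.00026). The other 2 lower ones were Pcsk2, a protease that cuts precursors (-3.46 ± 0.64, adjusted p 0.00248), and Cckbr, a receptor for cholecystokinin (-7.97 ± 1.90, adjusted p 0.02). Of 16 tested in Pvalb nuclei 0 were higher and 3 lower (median -0.30, against -0.54), namely Pcsk1, another such protease, by -9.57 ± 1.199 (0.844 against 124 CPM, adjusted p 1.17e-05), Cadps2, with 0 reads against 3484 (adjusted p 0.000199), and Pcsk2 by -4.34 ± 0.79 (adjusted p 0.000968). Of 19 tested in striatal projection nuclei 0 were higher and 3 lower (median -1.51, against -0.42), namely Cadps2 by -10.35 ± 1.09 (adjusted p 1.74e-06 in edgeR), Cckbr by -8.50 ± 1.33 (4.18 against 145 CPM, adjusted p 0.000221) and Cadps, a vesicle-priming relative of Cadps2, by -1.49 ± 0.31 (adjusted p 0.00341).

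Between striatal projection and other Sst nuclei 14 of the list were tested, 1 was higher and 2 were lower (median -0.81, against 0.08 over all genes). Crhbp was lower in striatal projection nuclei by -11.24 ± 1.07 (1.22 against 407 CPM, adjusted p 3.54e-07 in edgeR). Adcyap1r1, the receptor for PACAP, was lower by -7.62 ± 1.52 (9.93 against 170 CPM, adjusted p 0.00249). Pcsk2 was higher by 4.06 ± 0.99, in 10 of 10 title groups (324 against 52.1 CPM, adjusted p 0.0137).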

How the data were processed

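Single-nucleus RNA was measured in 904 libraries. The values are raw read counts per gene as deposited by the authors, in 1 table of 32285 genes by 2501 columns; 904 columns matched a sample by its library name and 1597 were not used. The submitters' processing notes name STAR 2.7.2a and the build mm10; the counting tool, annotation and strand setting are not given in the sources used here. Gene IDs were named from GENCODE M21 (32235 matched, 50 did not).

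Counts were summed per class and title group (at least 3 nuclei) and tested with edgeR 4.0.16's quasi-likelihood F test, with the title group as a block, TMM scaling, filterByExpr and Benjamini-Hochberg adjustment at 0.05 over all tested genes, in comparisons with at least 4 shared title groups. SE is the log2 difference divided by the square root of F. Log2 differences come from this blocked fit, so they can differ widely from the ratio of the mean CPM printed beside them. Levels are CPM of the summed counts. Each step was tested on simulated data. Doublets were not called; nuclei in more than 1 class were left out. No kept library had counts identical to another's. Intervals are exact Clopper-Pearson and, like the floor of 3 counts, cover counting error only, since reads without molecular identifiers are not independent molecules. Fewer nuclei holding a transcript and less of it per nucleus cannot be told apart in a summed level.

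The 8 genes and the lists were chosen with earlier results of these data known. The text names the 8 genes, for each the 3 genes most like it among those of at least 5 CPM (1 of them is not reported here), and per comparison the 2 listed genes with the smallest p; other listed genes that were called are named where their count was small, after their values were seen. Alternatives changed the scaling, filter, tool (DESeq2 1.42.0, limma 3.58.1), weighting, grouping, thresholds, depth, prefixes and title groups. Analysing S40325 or S40327 alone and leaving out nuclei with genes of another class were chosen after seeing the data.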

Additional observations from a re-analysis of the deposited data

Results flagged for a closer look

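Among 27 sets of title-group values in classes of 4 to 10 title groups, 20 had 1 value far from the others. This was judged by its gap to the nearest value as a share of the whole range. The cutoffs flag about 1 in 20 sets of normally distributed values, a rate that does not apply to sets with many values at 0. Where only 1 title group holds reads, the share is 1 by construction, so the number flagged cannot be set against chance. In each of the 20 flagged sets the highest title group stood apart, and most of these genes were at or near 0 in the other groups of that class. The share was 1 for Adcyap1 (101 CPM in the highest group), Crh (66.4 CPM) and Tacr1 (84.8 CPM) in Adarb2 interneuron nuclei, for Cck in Nos1/Chodl nuclei (16.9 CPM), for Npy (63.98 CPM) and Vip (0.772 CPM) in oligodendrocytes, for Tacr1 in Drd1 nuclei (125 CPM) and for Vip in Drd2 nuclei (6.95 CPM). In these sets every other title group held 0 reads.

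In astrocytes the share was 1 for both Cck (231 CPM) and Vip (245 CPM), both in the title group DLX2.0-SYFP2-H2B-3xsmOPT-BC. All 422 Cck and 448 Vip reads of the class were in the same nucleus, of the prefix S40325, at 885 and 940 CPM. For Tac1 it was 0.604 in astrocytes (323 CPM, next 128), 0.994 in oligodendrocytes (180 CPM, next 1.05; the title group DLX2.0-3xU7snRNAOPT-SYFP2-H2B-BC) and 0.579 in Nos1/Chodl nuclei (405 CPM, next 171). Cort gave 0.664 in Adarb2 interneuron nuclei (129 CPM, next 43.5) and 0.738 in Nos1/Chodl nuclei (125 CPM, next 32.7). Cck gave 0.636 in Adarb2 interneuron nuclei (910 CPM, next 382) and 0.594 in Drd2 nuclei (67.8 CPM, next 27.5). Npy gave 0.914 in Drd1 nuclei (90.1 CPM, next 7.74) and 0.767 in Drd2 nuclei (85.4 CPM, next 19.9), and Tacr1 gave 0.98 in Drd2 nuclei (15.1 CPM, next 0.306).

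Reads of several genes appeared in nuclei that entered no comparison, at shares above those in glial nuclei. In the 84 nuclei of no class the share with reads was 20.2% for Tacr1, 14.3% for Npy and 4.76% for Cort. In the 92 nuclei that met more than 1 class rule it was 39.1% for Npy, 30.4% for Tac1, 29.3% for Cck, 15.2% for Cort, 13% for Tacr1 and 8.7% for Crh.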

How the results depend on the processing

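The counts of called genes among the 8 were 1, 0, 2, 4, 2, 3 and 0 in Nos1/Chodl against other Sst, other Sst against Pvalb, other Sst, Pvalb and striatal projection against excitatory, striatal projection against other Sst, and Drd1 against Drd2. Nos1/Chodl against other Sst gave 2 (Npy, Tacr1) with no low-count filter, with thresholds doubled and with grouping by vector ID, and 1 to 2 over title groups left out, 2 being without DLX2.0-SYFP2-H2B-3xBORG-BC. Other Sst against Pvalb gave 1 (Tac1) with RLE scaling, limma-voom and thresholds doubled, 1 with DESeq2 and vector ID, 2 (Npy, Tac1) with nuclei weighted equally and without nuclei holding genes of another class, 3 (Npy, Vip, Tac1) with no filter, and 0 to 1 over title groups left out. Other Sst against excitatory gave 1 with no title block (Cck) and 1 (Npy) without S40317, without S40325 and in S40327 alone, and 2 to 3 over title groups left out. Pvalb against excitatory gave 2 with no title block (Cck, Tac1), 2 (Npy, Tac1) without S40317 or without S40325, 1 (Tac1) without S40327, 1 (Npy) in S40327 alone and 3 to 4 over title groups left out. Striatal projection against excitatory gave 1 (Cck) without S40327, 0 in S40327 alone and 2 with any title group left out. Striatal projection against other Sst gave 1 (Npy) with at least 5 nuclei and 2 to 3 over title groups left out. It gave 2 (Npy, Tac1) by vector ID, when thinned, without S40325, in S40327 alone and without nuclei holding genes of another class. With DESeq2 and with nuclei weighted equally it gave 4 (Npy, Cort, Cck, Tac1). Drd1 against Drd2 gave 1 (Tac1) with no filter, DESeq2, limma-voom and nuclei weighted equally, and 0 to 1 over title groups left out. The cause was not tested.

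Reversed differences were those of Cort between other Sst and Pvalb (0.12 with nuclei weighted equally, 0.25 by vector ID, 0.11 with thresholds doubled and when thinned, 0.29 without S40317, -0.46 to 0.37 over title groups left out) and of Cck between Drd1 and Drd2 (2.62; -0.54 to 5.99 over title groups left out). Cort between striatal projection and other Sst lost its call without any of DLX2.0-3xsmOPT-SYFP2-H2B-BC (adjusted p 0.058 in edgeR), DLX2.0-3xU7snRNAOPT-SYFP2-H2B-BC (0.0631), DLX2.0-SYFP2-10aa-H2Bmod-BC (0.0564), DLX2.0-SYFP2-H2B-BORG-BC (0.0559), DLX2.0-SYFP2-H2B-U7snRNAOPT-BC (0.0671) and either of the 2 title groups whose construct has a 3'box (0.0588 and 0.0508), without DLX2.0-U7snRNAOPT-SYFP2-H2B-BC, where it failed the low-count filter, and without nuclei holding genes of another class (0.0543). Over all tested genes, edgeR's 8, 25, 228, 448, 387, 445 and 4 calls became 441, 402, 1325, 1863, 1656, 1595 and 529 with DESeq2, 66, 79, 395, 744, 733, 752 and 22 with limma-voom, 52, 88, 435, 933, 621, 677 and 18 with no filter, and 103, 184, 656, 1251, 2606, 1722 and 14 with nuclei weighted equally. Without S40327 the calls were 92 for Pvalb and 22 for striatal projection against excitatory.

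Some alternatives were not run because fewer than 4 title groups were left: at least 5 nuclei for Nos1/Chodl against other Sst, other Sst against excitatory and Drd1 against Drd2, each prefix left out for Nos1/Chodl against other Sst, S40327 left out for other Sst against Pvalb, excitatory and striatal projection, and S40325 left out for Drd1 against Drd2. No paired analysis was possible because the replicate numbers in the titles only name nuclei; classes were compared within title groups, the one block used. Crh, Vip, Adcyap1 and Tacr1 failed the low-count filter in all 7 comparisons at the counts held, so their differences are given as reads and bounds.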

Other observations

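In nuclei of no class Tacr1 lay with Chat and Lhx8, which mark cholinergic neurons of the forebrain. At 20 CPM, 12 of 17 nuclei with Chat and 13 of 19 with Lhx8 held Tacr1, against 3 of 67 without Chat and 2 of 65 without Lhx8. The split was chosen after the values were seen and has no test, and no class rule covered these nuclei.

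Of nuclei left out because they met more than 1 rule, 11 met both the striatal projection and the Nos1/Chodl rule. Among these 11, all held Npy, 9 held Tacr1 and 6 held Tac1. Of 44 nuclei in the Nos1/Chodl class itself, 20 held Drd1 of at least 20 CPM.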
